A study of Mus musculus with 54 samples.

Results

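The genes described are 40 genes of the complement and coagulation systems, chosen by name from the 54356 genes listed for each tissue, and all 40 were found in the heart and in the liver. Total RNA was sequenced from hearts and livers of male C57BL/6 mice, 3 Mrps12+/+, 3 Mrps12ep/ep and 3 Mrps12ha/ha for each tissue, all 20 weeks old and all fed a high-fat diet (HFD) with 42% of its energy from fat. Mrps12 encodes a protein of the mitochondrial ribosome, and the homozygous point mutations make mitochondrial protein synthesis error-prone (Mrps12ep/ep) or hyper-accurate (Mrps12ha/ha), with litter-mate Mrps12+/+ mice as controls. No mouse on another diet was analysed here, so the diet is shared by all groups. The normalised read counts have 1 column per mouse and tissue, each pooled from 3 technical libraries, and held 11202866 to 51480271 reads in hearts and 21238036 to 81518399 in livers. Each tissue was normalised on its own. The 8 cardiomyocyte markers summed to 2238479 to 3500877 in hearts and 45.5 to 7851 in livers, and the 12 hepatocyte markers to 5539963 to 7608951 in livers and 1661 to 19205 in hearts, so each tissue carried the markers of its label. Nothing in the sources used here says whether a heart and a liver with the same number came from 1 mouse.

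Complement is a cascade of plasma proteases and binding proteins that marks particles for uptake and can end in a pore in a target membrane. Its classical branch starts at the C1 complex and its lectin branch at mannose-binding lectins, and both meet at C3. Coagulation is a second protease cascade that ends with thrombin cutting fibrinogen into fibrin. Most of these proteins are made by hepatocytes and secreted into blood, whereas C1q is made mainly by macrophages, and several early complement components are also made by fibroblasts and endothelial cells.

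The fibrinogen chains, encoded by a gene cluster on chromosome 3, moved together across the livers and across the hearts, while Klkb1 and Serpind1 stood at the other end in the liver in which fibrinogen was highest. For this reason their upstream sequences are shown. The bases come from the RefSeq promoter windows (GRCm38.p6, 250 bases before and 50 after the annotated start), of which 30 of the 40 genes had a match and C1qa, C2, C4b, Cfb, Cfi, Kng1, Masp1, Plg, Proc and Serping1 had none. Only bases before the start and outside the GENCODE gene are printed, 5′ to 3′ on the strand of the gene: Fga at chr3:83025903-83026075 (plus strand), Fgb at chr3:83049864-83050113 (minus strand), Fgg at chr3:83007474-83007723 (plus strand), Klkb1 at chr8:45294860-45295085 (minus strand) and Serpind1 at chr16:17331121-17331370 (plus strand). Capitals mark matches, on either strand, to any of 5 short motifs. The TATA box was searched as TATAAA. The HNF1 motif was searched as GTTAAT. The HNF4 motif was searched as AAGTCCA. For C/EBP the letters were TTNNGCAA. For STAT the letters were TTCNNNGAA.
Fga: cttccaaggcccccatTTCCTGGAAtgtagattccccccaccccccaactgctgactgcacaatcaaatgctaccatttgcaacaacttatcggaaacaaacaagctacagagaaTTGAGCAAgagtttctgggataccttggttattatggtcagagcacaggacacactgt
Fgb: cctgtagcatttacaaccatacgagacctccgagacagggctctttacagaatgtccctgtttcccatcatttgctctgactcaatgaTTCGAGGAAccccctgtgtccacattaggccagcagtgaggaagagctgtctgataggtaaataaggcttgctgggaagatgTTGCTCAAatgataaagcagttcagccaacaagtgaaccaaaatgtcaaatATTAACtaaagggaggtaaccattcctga
Fgg: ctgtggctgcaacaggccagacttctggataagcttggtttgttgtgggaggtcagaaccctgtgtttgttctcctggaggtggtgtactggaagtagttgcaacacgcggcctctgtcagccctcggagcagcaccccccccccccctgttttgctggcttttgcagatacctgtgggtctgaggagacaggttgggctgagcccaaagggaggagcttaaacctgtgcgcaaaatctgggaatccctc
Klkb1: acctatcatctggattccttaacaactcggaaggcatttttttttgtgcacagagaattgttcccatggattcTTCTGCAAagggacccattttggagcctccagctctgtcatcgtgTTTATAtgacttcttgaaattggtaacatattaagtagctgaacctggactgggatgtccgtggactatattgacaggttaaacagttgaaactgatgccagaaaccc
Serpind1: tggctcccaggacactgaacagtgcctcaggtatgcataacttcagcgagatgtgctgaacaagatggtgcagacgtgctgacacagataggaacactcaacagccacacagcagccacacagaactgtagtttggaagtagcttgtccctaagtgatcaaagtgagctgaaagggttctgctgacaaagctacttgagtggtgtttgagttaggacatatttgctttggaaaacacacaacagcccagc

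Fga and Fgb each held a STAT match and a C/EBP match, and each had an HNF1 match near its start, which for Fga lies in bases not printed. Klkb1 held a C/EBP match and a TATA box match on the opposite strand, and no match to these letters was found in the windows of Fgg and Serpind1. In all 32851 windows of 300 bases the STAT letters were found in 8.3%, the C/EBP letters in 10.8%, the HNF1 letters in 7.1%, the HNF4 letters in 4.17% and the TATA box in 13.6%. Of the 30 genes with a window, 7 held the STAT letters, 10 the C/EBP letters, 8 the HNF1 letters, 1 the HNF4 letters and 3 the TATA box. A match to letters is a description of the window and no evidence of binding.

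In the liver the 40 genes covered a wide range of levels. Per kilobase of merged exons, the mean normalised count was highest for the fibrinogen chains Fgg (86127), Fga (80884) and Fgb (61445), followed by C3 (56210), the central complement component. Kng1, the kininogen gene, followed with 30697 and Plg, which encodes plasminogen, with 28174. The lowest were Pros1 (706), which encodes the anticoagulant protein S, Masp1 (812) and C2 (829). Each fibrinogen chain varied over the 9 livers with a coefficient of variation of 75.1% to 81.5%. Because the chains moved together across the livers, this shared spread does not measure how firm the order within the top 3 is. That order was not tested within each liver. The means also include the liver of Mrps12+/+ mouse 3. There the chains were 3.98 to 4.34 times and C3 2.42 times the mean of the 8 other livers. The place of Fgb above C3 rested on that liver. The most even genes were F2, which encodes prothrombin, at 5.26%, and Serpinc1, which encodes antithrombin, at 5.59%. The median coefficient of variation of the 40 genes was 19.2% in livers and 76.2% in hearts.

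The heart held far less RNA of most of the 40 genes. Set against each other in CPM, the reads of a gene scaled to a common library total, over all 9 mice, none of the 40 genes had a higher mean in the heart than in the liver. No test of heart against liver was made, and the deposited values of each tissue were normalised separately. C1qa was nearest, at 59.6 CPM in hearts and 64.4 CPM in livers, or 92.5% of the liver level. C1qb reached 77.7%, C1qc 74.8% and Pros1 59.3%. Serping1, the gene of the C1 inhibitor, reached 20.4%, Masp1 16.4%, C1ra 13.5%, C1s1 11.2%, C3 4.88%, C2 3.47% and C4b 3.15%. The other 29 genes were each below 1% of their liver level, from F7 at 0.939% to Fga at 0.131%.

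**Figure D1:**
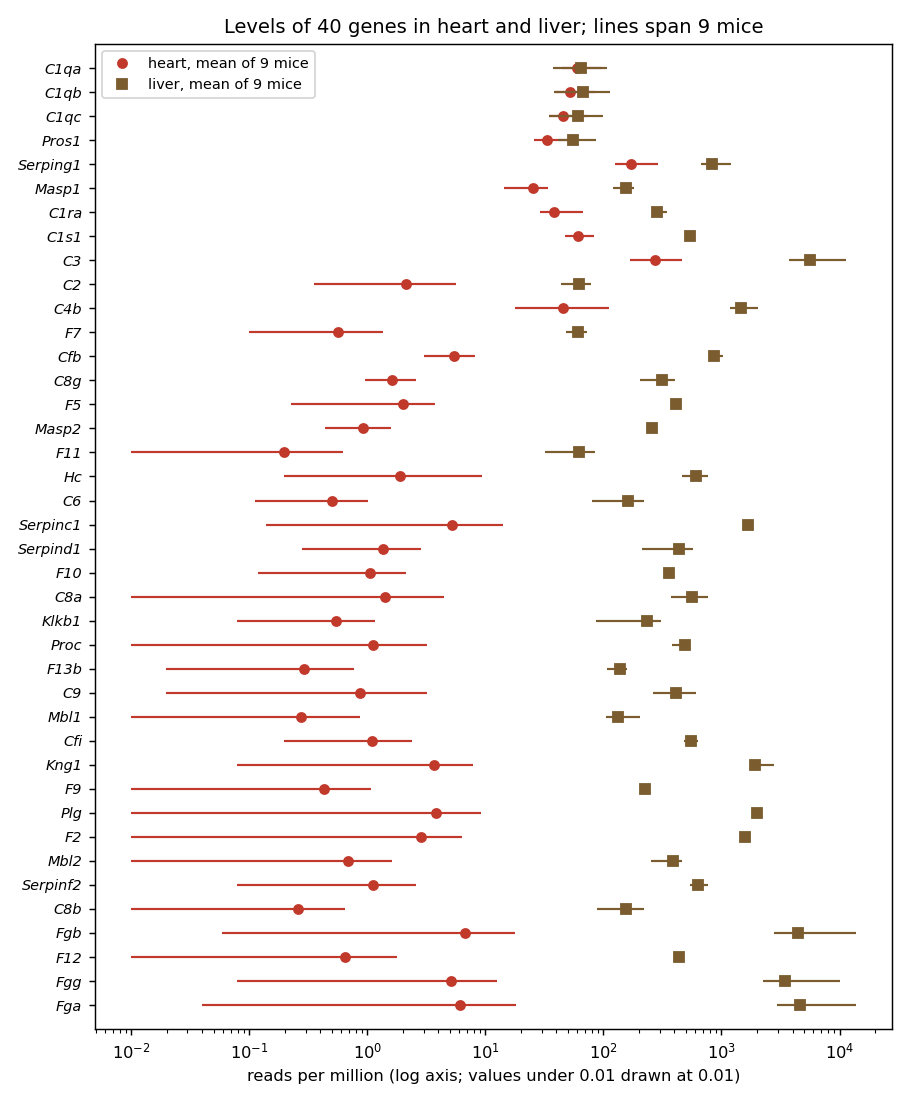
Reads scaled to a common library total (CPM, log axis) of each of the 40 genes in hearts (circles) and livers (squares), as means of 9 mice with lines from the lowest to the highest mouse. The C1q chains and Pros1 lie at 59.3% to 92.5% of their liver mean, and the fibrinogen chains at the bottom at 0.131% to 0.151%.

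The 29 genes below 1% of the liver level varied together from heart to heart. Their median coefficient of variation over the 9 hearts was 92.3%, against 24.6% for the other 11 genes. Summed over the 29 genes, the hearts of Mrps12+/+ mice 1, 2 and 3 held 4092, 1076 and 1790 normalised counts, those of Mrps12ep/ep mice 3437, 410 and 405, and those of Mrps12ha/ha mice 729, 3878 and 1377. The high hearts were therefore 1 of each genotype, Mrps12+/+ mouse 1, Mrps12ep/ep mouse 1 and Mrps12ha/ha mouse 2. Of the 29 genes, 26 were highest in 1 of these 3 hearts, the exceptions being F5, F7 and Cfb, and for 21 genes the same 3 hearts were the 3 highest. In 26 genes, all but Cfb, C6 and F9, the lowest heart was Mrps12ep/ep mouse 2 or mouse 3.

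The fibrinogen chains are given in full as an example, while the coefficient of variation over the hearts was higher for Hc, the mouse gene of C5 (156%), and C9 (120%) than for Fga (102%). Fga, the alpha chain, had 599, 113 and 208 normalised counts in Mrps12+/+ hearts, 417, 1.2 and 13.6 in Mrps12ep/ep hearts and 36.8, 332 and 98.9 in Mrps12ha/ha hearts. Fgb, the beta chain, had 592, 110 and 174, then 428, 1.7 and 37.2, then 58.9, 504 and 118 in the same order. Fgg, the gamma chain, had 415, 88.3 and 189, then 331, 2.3 and 19.1, then 33.1, 347 and 111. In each chain the groups overlapped, and for Fga the Mrps12ep/ep hearts alone ran from 1.2 to 417. In the 6 hearts with more than 30 reads of both genes, the Fgg count was 0.689 to 1.09 times that of Fgb, against 0.728 to 0.832 times in the 9 livers. With 3 reads as the floor, counts below 1.74 to 9.06, depending on the heart, cannot be told from 0, and Mrps12ep/ep mouse 2 was at or under 3 reads for 13 of the 29 genes.

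Most of the 12 hepatocyte markers were high in the same hearts as these 29 genes. Alb, the albumin gene, had 9895, 2754 and 4116 normalised counts in Mrps12+/+ hearts, 7737, 65.5 and 569 in Mrps12ep/ep hearts and 1428, 9879 and 2589 in Mrps12ha/ha hearts, so the same 3 hearts were highest. The 12 hepatocyte markers summed to 6146 to 19205 in Mrps12+/+, 1661 to 15417 in Mrps12ep/ep and 3256 to 19084 in Mrps12ha/ha hearts, and all 12 had reads in every heart except Apoc3, which was listed at 0 in Mrps12ep/ep mouse 2. Ahsg, the fetuin-A gene, was an exception and was highest in Mrps12ep/ep mouse 2, at 2200 of the marker sum of 2448 in that heart, and Tat was lowest in Mrps12ha/ha mouse 1, at 12.9. The sum of the 29 genes was 0.391 to 0.532 times the Alb count in 7 hearts, 0.712 times in Mrps12ep/ep mouse 3 and 6.25 times in Mrps12ep/ep mouse 2, where Cfb alone gave 240 of the 410 counts. In livers the same ratio was 0.252 to 0.371 in 8 mice and 0.989 in Mrps12+/+ mouse 3. The summed fibrinogen chains were 0.0794 to 0.162 times Alb in hearts and 0.092 to 0.155 times in the same 8 livers. The part of these cells or of their RNA in the heart values was not tested, and in bulk tissue fewer cells of a type and less RNA per cell cannot be told apart.

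**Figure D2:**
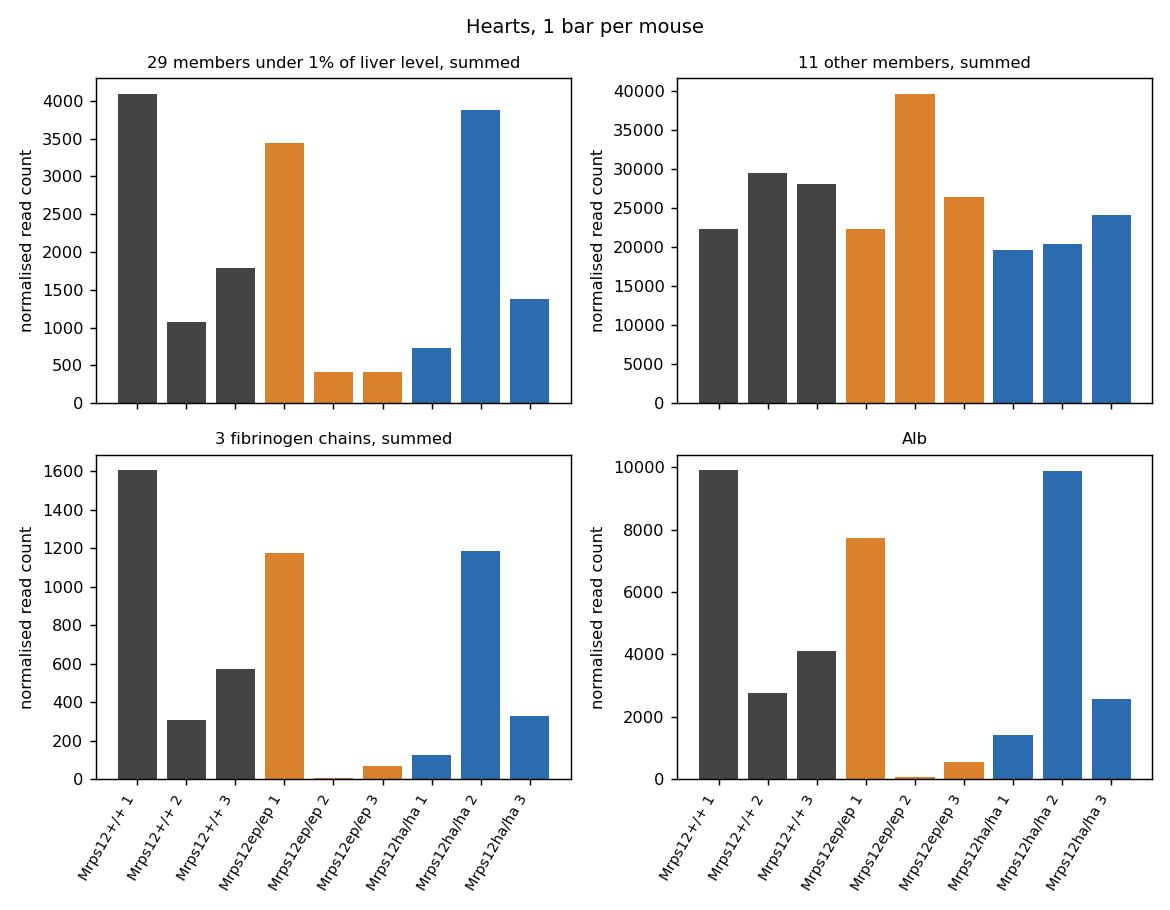
Normalised read counts in each heart (1 bar per mouse, coloured by genotype) of the 29 genes below 1% of the liver level, the other 11 genes, the 3 fibrinogen chains and Alb. The panels of the 29 genes, of fibrinogen and of Alb are highest in the same 3 hearts, with fibrinogen sums of 1605, 1176 and 1184, whereas the 11 other genes range only from 19703 to 39689.

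The 11 genes above 1% of the liver level followed another order. Their sum was highest in Mrps12ep/ep mouse 2, at 39689, and 10 of the 11, all but Masp1, were highest in that heart, beside 16.8% of all tested genes. Its sums of fibroblast markers (78280, against at most 54818 in the other hearts) and of mesothelium markers (3019, against at most 1862) were the highest as well. C1qa had 1628, 1678 and 1841 normalised counts in Mrps12+/+ hearts, 1724, 2854 and 1943 in Mrps12ep/ep hearts and 1984, 1495 and 2123 in Mrps12ha/ha hearts. C1qb had 1473, 1435 and 1696, then 1605, 2476 and 1674, then 1524, 1326 and 2002, and C1qc had 1347, 1260 and 1357, then 1317, 2141 and 1557, then 1440, 1178 and 1683. The 3 chains, which assemble into the recognition molecule of the classical pathway, kept close proportions, with C1qa at 1.06 to 1.3 times and C1qc at 0.8 to 0.944 times C1qb over the 9 hearts.

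Among the hearts, C1q and the macrophage markers were both highest in Mrps12ep/ep mouse 2, but their order differed elsewhere. Of the Mrps12+/+ hearts, mouse 3 had the highest C1q sum (4893) and the lowest macrophage marker sum (6524). The 10 macrophage and Kupffer cell markers, none of which is a C1q gene and all of which had reads in every mouse, summed to 6524 to 7697 in Mrps12+/+, 6610 to 12490 in Mrps12ep/ep and 6564 to 8224 in Mrps12ha/ha hearts, the highest again in Mrps12ep/ep mouse 2. The C1q sum was 0.561 to 0.754 times this marker sum in hearts and 0.293 to 0.529 times in livers. In the livers C1qa had 5067, 1898 and 2857 normalised counts in Mrps12+/+, 3893, 2512 and 4261 in Mrps12ep/ep and 2958, 2069 and 4253 in Mrps12ha/ha mice. C1qb had 5389, 1912 and 3253, then 4129, 2896 and 4217, then 2999, 2316 and 4073 in the same livers, and C1qc 4742, 1748 and 2559, then 3583, 2458 and 4204, then 2878, 2067 and 4054. The highest and the lowest liver of each chain were both Mrps12+/+. The part of macrophages, fibroblasts or mesothelium in these values was not tested.

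Genotypes were compared with limma on the log2 of the normalised count plus 1, with p-values adjusted by the Benjamini-Hochberg method over all tested genes, those with a mean of at least 10 in the tissue. Fold changes on this scale understate those of low genes. All 40 genes were tested in the liver and 36 in the heart, where Mbl1, C8b, F11 and F13b were too low. No gene of the 40 had an adjusted p under 0.05 in any of the 6 comparisons. The lowest adjusted p was 0.122 for Mrps12ha/ha against Mrps12+/+ hearts, 1 for Mrps12ep/ep against Mrps12+/+ hearts and 0.227 for Mrps12ha/ha against Mrps12ep/ep hearts. In livers it was 0.298, 0.456 and 0.616 in the same order. The share of all tested genes called was 0.0311%, 0.0% and 0.0249% in the heart comparisons and 0.00653% in each liver comparison, so a count of 0 among these genes is near the background. An unadjusted p under 0.05 was reached by 1, 0 and 3 of the 36 genes in the hearts, against 19.7%, 1.69% and 17.9% of all tested genes, and by 3, 4 and 0 of the 40 in the livers, against 14.1%, 9.74% and 8.62%. A limma-voom fit of the recovered reads with the deposited size factors, chosen after seeing the data, also called none of these genes, with an unadjusted p under 0.05 in 3, 7 and 7 genes in the hearts and 2, 4 and 2 in the livers. The Mrps12+/+ mice served as controls for either mutant, so the comparisons with them share these samples.

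Masp1 came closest to a call. It encodes a protease of the lectin pathway together with other products of the same gene, which these gene counts sum, and it lies on chromosome 16 (chr16:23449417-23520815, minus strand, GRCm38). Its normalised counts were 1129, 1027 and 961 in Mrps12+/+ hearts, 860, 864 and 885 in Mrps12ep/ep hearts and 471, 695 and 489 in Mrps12ha/ha hearts. All Mrps12ha/ha hearts lay below all Mrps12ep/ep hearts, and these below all Mrps12+/+ hearts. Mrps12ha/ha hearts averaged 552 ± 124 and Mrps12+/+ hearts 1039 ± 84.6 (SD, n = 3), a log2 difference of -0.93 (SE 0.15, limma adjusted p = 0.122, unadjusted p = 0.000167). The exact two-sided permutation test gave p = 0.1, the smallest it can give with 3 against 3 mice. Against Mrps12ep/ep hearts, at 870 ± 13.8, the log2 difference was -0.68 (SE 0.15, limma adjusted p = 0.227), and that of Mrps12ep/ep against Mrps12+/+ hearts was -0.25 (SE 0.15, limma adjusted p = 1). Without Mrps12ha/ha mouse 2, the shallowest heart, the adjusted p of Masp1 was 0.00187 against Mrps12+/+ and 0.00339 against Mrps12ep/ep hearts, in fits that called 27% and 23.2% of all tested genes. In livers Masp1 had 8303, 7355 and 8631 in Mrps12+/+, 9236, 6383 and 7779 in Mrps12ep/ep and 7685, 8488 and 7994 in Mrps12ha/ha mice, which overlapped.

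C3 and F7 were the other genes whose Mrps12ha/ha hearts did not overlap with Mrps12+/+ hearts. C3 had 7209, 11570 and 9630 normalised counts in Mrps12+/+, 7759, 13592 and 9319 in Mrps12ep/ep and 5528, 7082 and 6891 in Mrps12ha/ha hearts. The log2 difference of Mrps12ha/ha was -0.52 against Mrps12+/+ (SE 0.23, limma adjusted p = 0.254) and -0.62 against Mrps12ep/ep hearts (SE 0.23, limma adjusted p = 0.252), the latter -0.4 without Mrps12ep/ep mouse 2. F7, the clotting factor that works with tissue factor, had 16.4, 4.3 and 13.2 in Mrps12+/+, 20.8, 2.9 and 9.1 in Mrps12ep/ep and 38.7, 18.1 and 45 in Mrps12ha/ha hearts. Its log2 difference was 1.58 against Mrps12+/+ hearts (SE 0.73, limma adjusted p = 0.262), and the value of Mrps12ha/ha mouse 2 rests on 6 reads. In this comparison 1 of 36 genes lay higher and 2 lower without overlap, against 11.1% and 10.0% of all tested genes. For Mrps12ep/ep against Mrps12+/+ hearts Masp1 alone lay lower without overlap and no gene higher, against 3.64% and 4.4% of all tested genes. For Mrps12ha/ha against Mrps12ep/ep hearts Masp1 and C3 lay lower and no gene higher, against 7.82% and 8.77%.

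Several marker lists also differed between Mrps12ha/ha and Mrps12+/+ hearts without overlap of their sums. The 6 mesothelium markers summed to 868 to 1862 in Mrps12+/+, 639 to 3019 in Mrps12ep/ep and 313 to 526 in Mrps12ha/ha hearts, with 1 of the 6 listed at 0 in Mrps12ha/ha mice 2 and 3 and none elsewhere. The 8 fibroblast and stellate cell markers summed to 41804 to 54818 in Mrps12+/+, 38968 to 78280 in Mrps12ep/ep and 38251 to 39369 in Mrps12ha/ha hearts, with none at 0. The sum of the 8 cardiomyocyte markers lay the other way, at 2419016 to 2741900, 2238479 to 2729653 and 2796434 to 3500877, with none at 0. Taken singly, 4 of these markers had higher and 4 had lower fitted values in Mrps12ha/ha than in Mrps12+/+ hearts, with a median log2 difference of -0.05. The endothelial marker sums overlapped, at 29467 to 37135 in Mrps12+/+ and 36033 to 58278 in Mrps12ha/ha hearts, although all 8 markers had higher fitted values in Mrps12ha/ha hearts. Like Masp1, the mesothelium and fibroblast sums were lower in every Mrps12ha/ha than in every Mrps12+/+ heart. Masp1 was 860 to 885 in the Mrps12ep/ep hearts, where these sums varied widely. It was highest in Mrps12+/+ mouse 1, where both sums were the lowest of the Mrps12+/+ hearts. The part of these cells in the values of Masp1 and C3 was not tested.

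**Figure D3:**
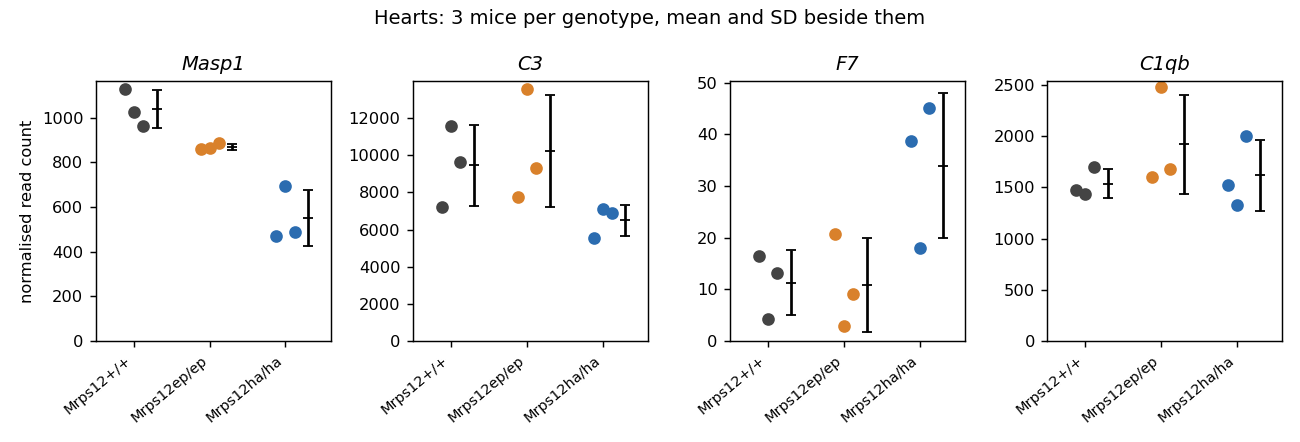
Normalised read counts of Masp1, C3, F7 and C1qb in the 9 hearts, 1 point per mouse with the mean and SD of each genotype beside the points, each axis starting at 0. Masp1 separates into 3 levels (961 to 1129, 860 to 885 and 471 to 695), while C1qb overlaps between genotypes.

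Over the 36 genes the median log2 difference was -0.31 for Mrps12ha/ha against Mrps12+/+ hearts, -1.11 for Mrps12ep/ep against Mrps12+/+ hearts and 0.71 for Mrps12ha/ha against Mrps12ep/ep hearts, beside -0.02, -0.01 and -0.02 over all tested genes. Among the 25 tested genes below 1% of the liver level, 23 had lower values in Mrps12ep/ep than in Mrps12+/+ hearts with a median of -1.51, and none of the 25 had groups that did not overlap. Fga had a log2 difference of -3.35 there, with an SE of 1.64 and a limma adjusted p of 1. Summed, these genes were high in Mrps12ep/ep mouse 1 and low in mice 2 and 3, together with Alb.

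By role, the medians of the tested genes' log2 differences from Mrps12+/+ hearts were as follows. In complement, the 5 genes of the C1 complex had medians of 0.06 for Mrps12ha/ha and 0.3 for Mrps12ep/ep hearts, C2 and C4b -1.0 and 0.09, the lectin pathway -0.45 and -0.25, and C3 with factor B -0.48 and 0.14. The complement regulators Cfi and Serping1 had medians of -0.59 and -0.51 and the terminal components -0.23 and -1.08. In coagulation, the vitamin K dependent factors F2, F7, F9 and F10 had medians of -0.01 and -1.32, the contact system genes F12, Klkb1 and Kng1, which start the intrinsic clotting pathway, -0.44 and -2.61, and the fibrinogen chains -0.81 and -2.78. F5, the one tested gene of the other clotting factors, had 0.64 and -0.95. Plg and Serpinf2, plasminogen and its plasmin inhibitor, had -1.12 and -2.69, and the anticoagulants Proc, Pros1, Serpinc1 and Serpind1 -0.08 and -1.93. The lowest medians for Mrps12ep/ep hearts were those of fibrinogen, of Plg with Serpinf2 and of the contact system. All genes of these roles were below 1% of the liver level. The anticoagulants, which include Pros1, came next. The lowest medians for Mrps12ha/ha hearts included that of C2 and C4b, which were above 1%. Within the anticoagulants Pros1 had 867 to 1440 normalised counts in every heart, whereas Proc ranged from 0 to 109 and Serpinc1 from 4.1 to 474.

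**Figure D4:**
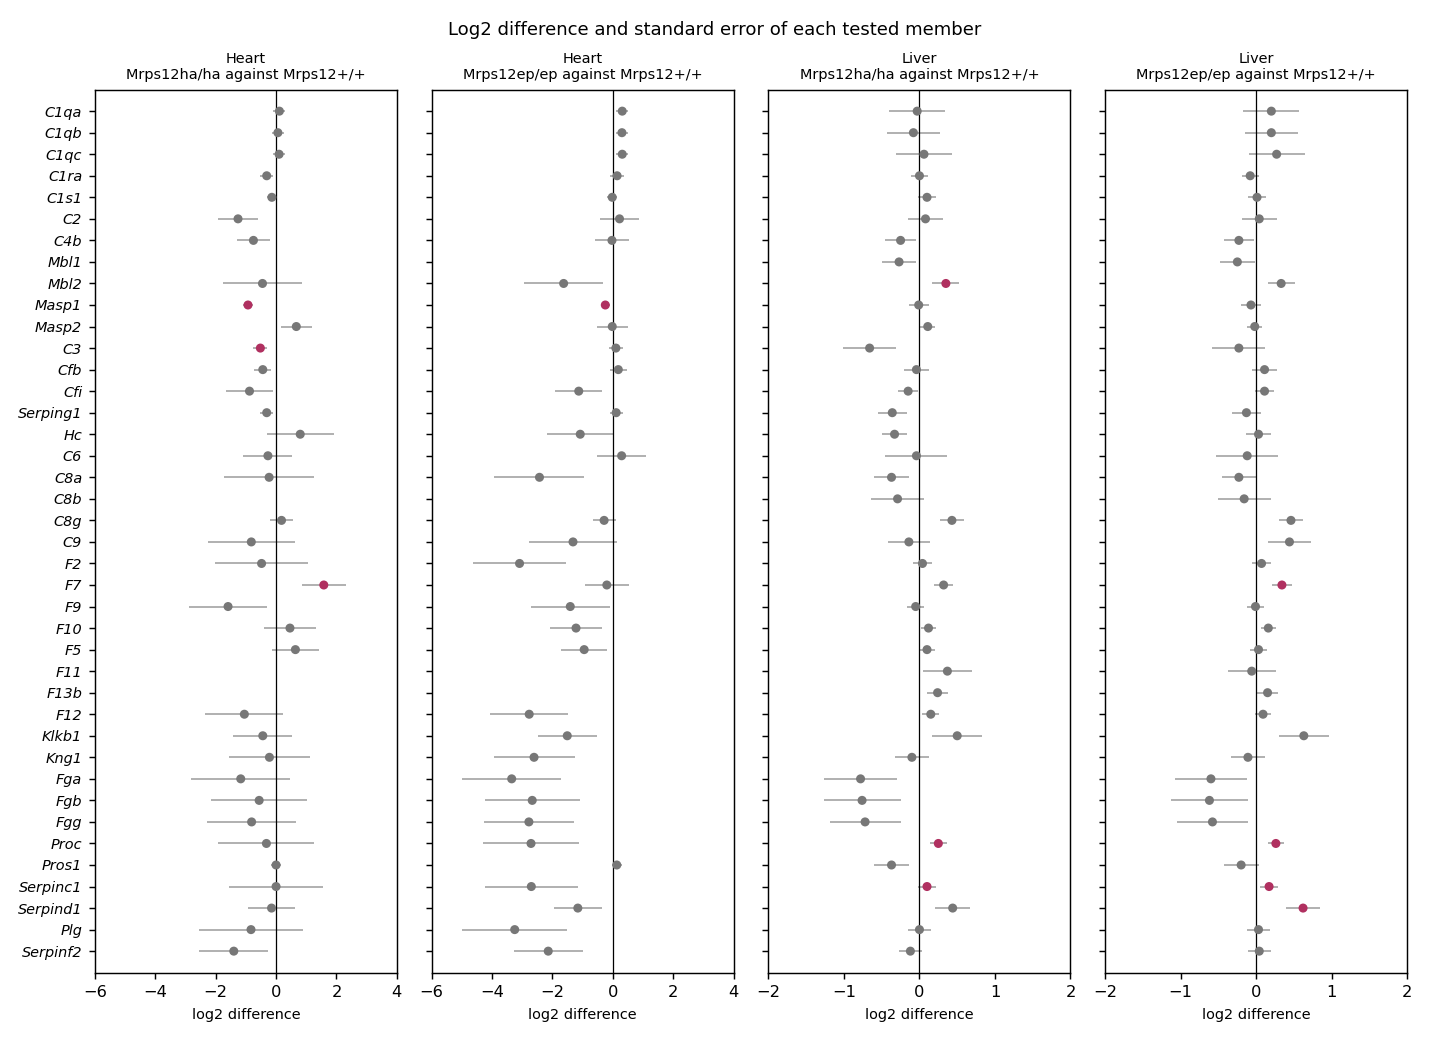
Log2 difference and standard error of each tested gene, ordered by role, for each mutant against Mrps12+/+ in hearts and livers, with genes whose groups do not overlap in red. Heart axes run from -6 to 4 and liver axes from -2 to 2, and the longest error bars in the hearts belong to the genes below 1% of the liver level.

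In the livers, 1 mouse stood apart. The liver of Mrps12+/+ mouse 3 was above all 8 other livers in 15 of the 40 genes (37.5%) and below all in 7 (17.5%), beside 21.8% and 18.7% of all tested genes. Fga had 163652, 204980 and 732668 normalised counts in Mrps12+/+, 222605, 179586 and 178212 in Mrps12ep/ep and 150054, 189118 and 170276 in Mrps12ha/ha livers. Fgb had 161838, 173893 and 740661, then 210802, 160114 and 169860, then 141891, 182944 and 164952, and Fgg had 122453, 144749 and 539299, then 159295, 130029 and 137558, then 114423, 146457 and 128105. The 3 chains in Mrps12+/+ mouse 3 were 3.98 to 4.34 times the mean of the 8 other livers, and the other 8 livers lay close together, for Fga between 150054 and 222605.

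Besides fibrinogen, 12 genes of several roles were above all other livers in this mouse. In complement these were C2 and C4b, C3 and Cfb, the regulators Cfi and Serping1, Mbl1 alone of the 4 lectin pathway genes, and C8a and Hc of the 6 terminal components, while none of the 5 genes of the C1 complex was. In coagulation these were Pros1, Kng1 and F9. C3 had 604239 normalised counts there, 2.42 times the mean of the others, whose highest was 306311. Pros1 was 1.74 times, Mbl1, a mannose-binding lectin, 1.7 times, Kng1 1.6 times, Serping1 1.59 times and C4b 1.55 times the mean of the other livers, each above all of them. Klkb1, the gene of plasma prekallikrein, lay at the other end with 4671 against 11053 to 15508 in the other livers, or 0.362 times their mean. Serpind1, which encodes heparin cofactor II, had 11322 against 19591 to 29089, or 0.472 times. C8g, Mbl2, F13b, Proc and Serpinc1 were also below all other livers, at 0.64, 0.644, 0.775, 0.793 and 0.914 times the mean. The lectins Mbl1 and Mbl2 thus lay on opposite sides in this liver, as did Kng1 and Klkb1 of the contact system.

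Several marker lists stood apart in the same liver. The 11 acute phase markers, which include the serum amyloid A genes and haptoglobin, summed to 2778579 in Mrps12+/+ mouse 3 and to 398793 to 552434 in the 8 other livers. The sum of the 12 hepatocyte markers was lowest there, at 5539963 against 6545798 to 7608951, with Alb at 2890195. Alb, Ttr, Apoc3, Cps1 and Apoh were each lowest in this liver, but the other hepatocyte markers were not. Mup20, for example, was 259543 there and 101487 to 316379 in the other livers. The sum of the 8 endothelial markers was lowest too, at 6254 against 10049 to 12407. No marker of these 3 lists was at 0 in any liver. The part of an acute phase response or of these cells in the values was not tested. Genes of skeletal muscle, summed over 6 markers, were at 18781 and 20148 in the livers of Mrps12+/+ mice 1 and 2 and at 28.9 to 216 in the 7 others, with all 6 markers above 0 in mice 1 and 2 and up to 4 of the 6 listed at 0 in the other livers. Their part was not tested either.

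**Figure D5:**
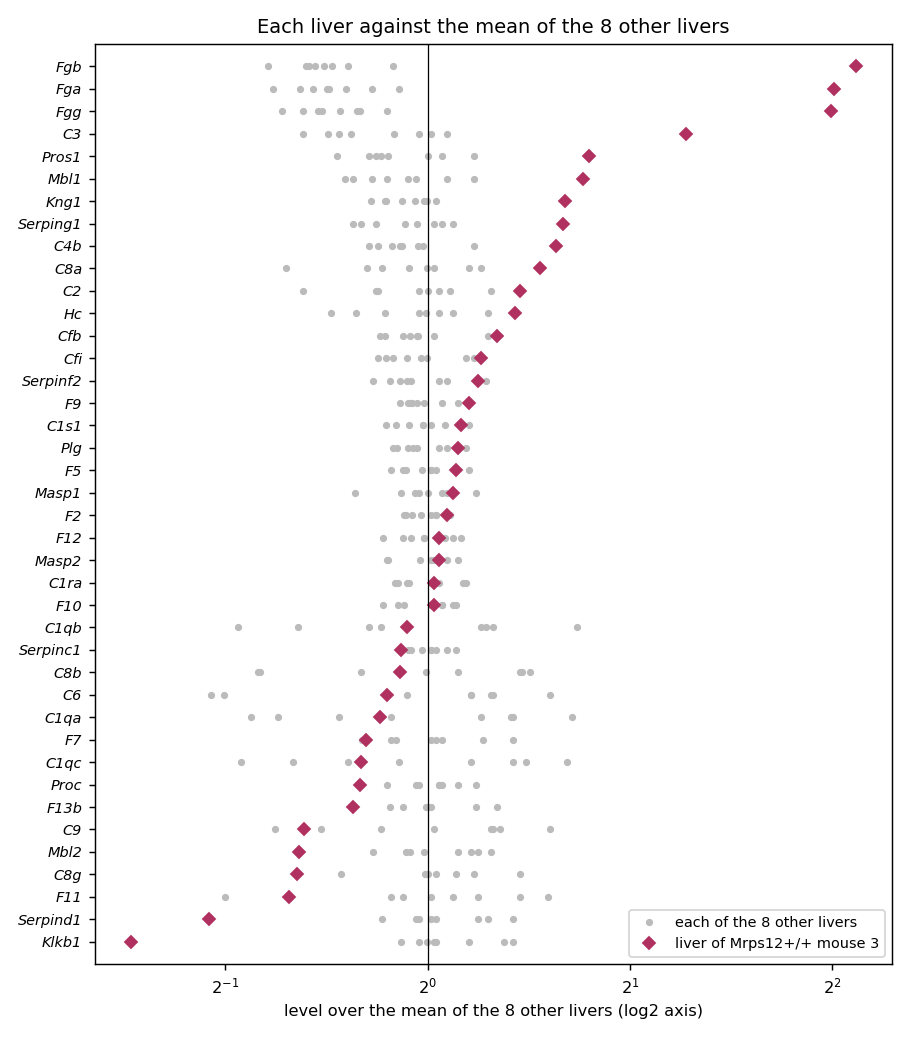
Level of each gene in each liver divided by the mean of the 8 other livers (log2 axis), with Mrps12+/+ mouse 3 as diamonds and the other livers as grey points. Fibrinogen lies at 3.98 to 4.34 times and Klkb1 at 0.362 times, both outside the range of the other livers.

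The fibrinogen differences in the liver comparisons with Mrps12+/+ depended on this mouse. Fga had a log2 difference of -0.78 for Mrps12ha/ha against Mrps12+/+ livers (SE 0.48, limma adjusted p = 0.492), which was -0.12 without Mrps12+/+ mouse 3. For Mrps12ep/ep the difference was -0.6 (SE 0.48, limma adjusted p = 0.692) and 0.07 without that mouse. The count of genes called stayed at 0 in both comparisons without it.

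Among the genes whose groups did not overlap in the livers, those compared with Mrps12+/+ were all higher in the mutants. For Mrps12ha/ha these were Proc, Mbl2 and Serpinc1, 3 of 40 against 10.0% of all tested genes in this direction, and none was lower, against 9.81%. Proc, the protein C gene, had 22335, 24352 and 20520 in Mrps12+/+ and 24638, 29205 and 26170 in Mrps12ha/ha livers, a log2 difference of 0.25 (SE 0.11, limma adjusted p = 0.34). Mbl2 had 18977, 19197 and 13604 against 23136, 22210 and 20063, a log2 difference of 0.35 (SE 0.18, limma adjusted p = 0.403), which was 0.19 without Mrps12+/+ mouse 3. Serpinc1 had 82379, 83042 and 80657 against 85784, 88487 and 89603, a difference of 0.1 (SE 0.12, limma adjusted p = 0.743). In Proc, Mbl2 and Serpinc1 alike, the lowest Mrps12+/+ liver was mouse 3.

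For Mrps12ep/ep against Mrps12+/+ livers the genes without overlap were Serpind1, F7, Proc and Serpinc1, 4 of 40 against 6.49% in this direction, and none was lower, against 6.28%. Serpind1 had 22732, 19591 and 11322 in Mrps12+/+ and 29089, 23100 and 27119 in Mrps12ep/ep livers, a log2 difference of 0.62 (SE 0.23, limma adjusted p = 0.47), which was 0.32 without Mrps12+/+ mouse 3. F7 had 2841, 2563 and 2590 against 3716, 3152 and 3274, a difference of 0.34 (SE 0.13, limma adjusted p = 0.48). Proc had 26386, 27740 and 26085 in Mrps12ep/ep livers, a difference of 0.26 (SE 0.11, limma adjusted p = 0.495). The exact permutation test gave p = 0.1 for each of these, its smallest value.

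Between the mutants, C3, Cfb and Cfi were lower in every Mrps12ha/ha than in every Mrps12ep/ep liver, 3 of 40 against 9.01% of all tested genes, and none was higher, against 8.82%. C3 had 212037, 228413 and 196238 in Mrps12ha/ha and 292615, 260836 and 306311 in Mrps12ep/ep livers, a log2 difference of -0.43 (SE 0.35, limma adjusted p = 0.789). Cfi, a protease that inactivates C3b and C4b, had 25148, 26782 and 25710 against 32185, 28011 and 32699, a difference of -0.26 (SE 0.13, limma adjusted p = 0.645). Cfb, the alternative pathway protease, had 41972, 43783 and 42866 against 43875, 54300 and 45960, a difference of -0.16 (SE 0.16, limma adjusted p = 0.841), which was -0.07 without Mrps12ep/ep mouse 2. C3 thus lay lower in Mrps12ha/ha than in Mrps12ep/ep mice without overlap in both tissues, with no call in either. Mrps12+/+ livers, at 281452, 219669 and 604239, overlapped with both mutants.

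Another 24 complement genes and 31 coagulation genes were counted beside the 40. Of these, 20 and 28 were tested in the heart and 21 and 27 in the liver, and none had an adjusted p under 0.05. In Mrps12ha/ha against Mrps12+/+ hearts, 9 of the 20 complement genes were lower without overlap, beside 10.0% of all tested genes, and 1 was higher, beside 11.1%. Of the 28 coagulation genes 4 were lower and 2 higher. For Mrps12ep/ep against Mrps12+/+ hearts no complement gene and 1 coagulation gene (higher) lay without overlap, and for Mrps12ha/ha against Mrps12ep/ep hearts 2 complement genes and 1 coagulation gene, all lower. In livers, 3 complement genes were higher and 1 lower for Mrps12ha/ha against Mrps12+/+, 1 higher and 3 lower for Mrps12ep/ep against Mrps12+/+, and 2 lower between the mutants. For the 27 coagulation genes these counts were 5 higher and 4 lower, 3 higher and 4 lower, and 3 higher and 2 lower in the same order. Of all tested genes, 10.0% were higher and 9.81% lower, 6.49% and 6.28%, and 8.82% and 9.01% in these liver comparisons. In hearts these shares were 4.4% and 3.64% for Mrps12ep/ep against Mrps12+/+, and 8.77% and 7.82% for Mrps12ha/ha against Mrps12ep/ep. C7, a terminal complement component, had 292, 511 and 358 in Mrps12+/+ and 118, 190 and 181 in Mrps12ha/ha hearts, a log2 difference of -1.23 (SE 0.45, limma adjusted p = 0.22). Cfd, the gene of complement factor D (adipsin), had 10.3, 79.6 and 472 against 1.8, 3 and 6.2, a difference of -4.13 (SE 1.67, limma adjusted p = 0.23). The 6 adipocyte markers were, like Cfd, highest in Mrps12+/+ mouse 3 and next in Mrps12ep/ep mouse 2. Their sum was 811 to 19396 in Mrps12+/+, 159 to 3150 in Mrps12ep/ep and 153 to 689 in Mrps12ha/ha hearts. Car3 gave 773 of the 811 and 628 of the 689, in hearts where Cfd was 10.3 and 3. Lep was listed at 0 in 4 of the 9 hearts, and the part of these markers was not tested. C3ar1, the C3a receptor, had 141, 145 and 91.2 against 203, 263 and 170, a difference of 0.76 (SE 0.29, limma adjusted p = 0.222).

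In the livers F3, which encodes tissue factor, had 81.2, 142 and 95.4 normalised counts in Mrps12+/+, 87, 134 and 200 in Mrps12ep/ep and 328, 332 and 239 in Mrps12ha/ha mice. The Mrps12ha/ha livers lay above all 6 others, with a log2 difference of 1.51 against Mrps12+/+ (SE 0.32, limma adjusted p = 0.12) and of 1.15 against Mrps12ep/ep (SE 0.32, limma adjusted p = 0.417). F13a1, the factor XIII subunit that crosslinks fibrin, had 34.3, 53.4 and 27.7 in Mrps12+/+, 7.1, 10.8 and 17.8 in Mrps12ep/ep and 11.9, 8.2 and 9.4 in Mrps12ha/ha livers. Its log2 difference from Mrps12+/+ was -1.83 in Mrps12ha/ha (SE 0.46, limma adjusted p = 0.152) and -1.65 in Mrps12ep/ep livers (SE 0.46, limma adjusted p = 0.407). Cfd had 190, 489 and 408 in Mrps12+/+ and 76.2, 56 and 124 in Mrps12ha/ha livers, a difference of -2.04 (SE 0.39, limma adjusted p = 0.106). Of the 5 adipocyte markers tested in livers, 2 were lower without overlap in Mrps12ha/ha than in Mrps12+/+ livers, beside 9.81% of all tested genes. Adipoq had 34.3, 118 and 2.4 (the last from 3 reads) in Mrps12+/+ and 0, 0.7 and 0 in Mrps12ha/ha livers. Lep had 30.1, 204 and 6.5 in Mrps12+/+ livers and was listed at 0 in all mutant livers. Cidec overlapped, at 507, 2474 and 7770 in Mrps12+/+ and 1426, 171 and 729 in Mrps12ha/ha livers, as did Plin1 and Car3. The sum of the 6 markers, most of it Car3, was 63518 to 206611 in Mrps12+/+, 175645 to 213305 in Mrps12ep/ep and 199254 to 235608 in Mrps12ha/ha livers, and its part was not tested. Fcna, a ficolin of the lectin pathway, had 1695, 1245 and 790 against 1949, 1770 and 2334, a difference of 0.76 (SE 0.24, limma adjusted p = 0.222). The same naming rule gave F2rl3 with log2 differences of 0.62 and 0.74 for Mrps12ha/ha and Mrps12ep/ep against Mrps12+/+ hearts, and F8 and C1rl with -0.71 each between the mutants' hearts. In livers it gave C5ar2 (0.76) and Serpina1c (0.61) for Mrps12ep/ep against Mrps12+/+, and Vtn (-0.21), Procr (-0.95) and F2r (0.22) for Mrps12ha/ha against Mrps12ep/ep, with limma adjusted p-values of 0.247 to 1 over these genes in the 2 tissues.

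C1ra, C1s1, C4b and Kng1 have near-identical copies in the mouse genome (C1rb, C1s2, C4a and Kng2), and how reads were divided between each pair is uncertain.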

How the data were processed

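Per the labels and the study's methods, the authors sequenced total RNA of hearts and livers on the Illumina platform, trimmed reads with Trim Galore 0.4.1 and cutadapt 1.18, checked them with FastQC 0.11.8 and quantified them with Salmon 1.1.0 in selective alignment mode with corrections for sequence and GC bias, on GENCODE vM21 (GRCm38.p6, mm10). The deposited values are normalised counts that the authors made with DESeq2 for each tissue without mitochondrial transcripts, rounded to 1 decimal, with technical libraries pooled into 1 column per mouse. The authors' 4 tables of comparisons hold base means, fold changes, errors and p-values and were not used.

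The columns were joined to mice through the sample numbers in the labels. In each column every low value tested (100%) was a multiple of a single step, to within 0.05 of a normalised count. Dividing by that step gave the reads used for depth, for CPM and for a floor of 3 reads. Intervals and floors cover counting error only. Salmon estimates counts, so these are approximate. The log2 of the count plus 1 was fitted with limma 3.58.1 (lmFit, eBayes with trend, R 4.3.3) with the 9 mice of a tissue in 1 fit, for genes with a mean of at least 10, with Benjamini-Hochberg adjustment over all of them and a threshold of 0.05. The fit was tested on simulated data. Their spread between mice was smaller than that of most genes below 1% of the liver level in the hearts. The simulation therefore does not show what the fit can detect for those genes. The unadjusted p-values and standard errors come from the same fit. Python 3.11.15 with scipy 1.17.1 was used for the rest.

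All 40 genes are accounted for. For each comparison, called genes and the 3 with the largest change in each direction among those whose groups do not overlap were named, with 2 in each direction for other pathway genes, and the fibrinogen and C1q chains throughout. A pathway gene that this rule also gave is not reported here. The genes and lists were chosen with earlier results of these data known. Alternatives were other pseudocounts and filters, only the 2 genotypes compared, array weights, a replicate block and leaving out each mouse. Labels do not say that equal numbers mark shared animals, litters or days, and of 9 same-numbered pairs in each tissue 2 had a correlation of deviations over 0.1, so the numbers were not taken as pairs.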

Additional observations from a re-analysis of the deposited data

How the results depend on the processing

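The number of the 40 genes called, 0 in each of the 6 comparisons, stayed at 0 in both liver comparisons with Mrps12+/+, in the liver comparison of the mutants and in Mrps12ep/ep against Mrps12+/+ hearts under every alternative run. For Mrps12ha/ha against Mrps12+/+ hearts, array weights called 4 (C2, C3, F7 and Masp1, beside 34.7% of all tested genes), leaving out the heart of each genotype highest in Alb (chosen after seeing the data) called 2, and leaving out 1 mouse at a time called 0 to 1. For Mrps12ha/ha against Mrps12ep/ep hearts the same alternatives called 7 (beside 39.3%), 10 and 0 to 2. The calls made when 1 mouse was left out came without Mrps12ha/ha mouse 2 (Masp1, and Cfb with Masp1). The shares of all tested genes called in those fits are given above beside Masp1. The hearts left out by Alb were chosen by a gene that is high where most of these genes are high, so the calls without them are not evidence of a difference. The share of all tested genes called without them is not given here, so the counts of 2 and 10 cannot be set against it. The cause of the other calls was not tested. The number of genes with a higher CPM in heart than in liver, 0 over all mice, was 0 to 1 without mice of 1 number.

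Over 15 alternatives the log2 difference of Masp1 ran from -1.11 to -0.83 (limma adjusted p = 0.00187 to 0.419) for Mrps12ha/ha against Mrps12+/+ hearts. The differences of Fgb and Fgg in that comparison ran from -1.42 to 0.14 and from -1.64 to 0.04 over the same alternatives. Their sign changed only in fits that left out 1 mouse. For Mrps12ep/ep against Mrps12+/+ livers those of Fga, Fgb and Fgg ran from -1.01 to 0.07, -1.0 to 0.09 and -0.98 to 0.09, positive without Mrps12+/+ mouse 3.

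Same-numbered mice had correlations of deviations of -0.2314 to 0.5777 in hearts and -0.1326 to 0.1638 in livers, and a replicate block called 0 of these genes in every comparison. The planned count models were not run, because the deposited values are normalised and are written with digit separators. Low counts limited the heart values, with 13 of 29 genes at 3 reads or fewer in Mrps12ep/ep mouse 2.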
